A study of Bos taurus with 13 samples.

Results

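The antigen presentation genes of this bovine mammary cDNA microarray were BOLA-DRB3 and CD74 of the class II pathway and BOLA and TAP1 of the class I pathway. They were found as the spots to which the platform annotation assigned exactly 1 of these 4 symbols. That gave 4 of 703 named genes, each printed as 1 cDNA clone in 3 spots, or 12 of 3888 spots. All 4 had a value from 3 spots on each of the 13 arrays, so no member was lost to a filter.

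Class I histocompatibility molecules sit on nearly all nucleated cells and show peptides from inside the cell to cytotoxic T cells. TAP1 is part of the transporter that carries those peptides into the endoplasmic reticulum, where class I molecules are loaded. Class II molecules are made mainly by B cells, dendritic cells and macrophages, and by some epithelia such as that of the intestine, and show peptides from the endosome to helper T cells. BOLA-DRB3 encodes the beta chain of bovine DR, the main class II molecule of cattle, and CD74 is the invariant chain that holds class II molecules closed until they reach the endosome.

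Each array was hybridised with 2 total RNAs of Bos taurus. On 8 tissue arrays channel 1 held RNA of the BovMac cell line, used as the common reference, and channel 2 held RNA of ileum, of the lymphoid tissues (lymph tissue, spleen and thymus), of adipose or adrenal tissue, of liver, or of the pre-pubertal mammary gland of a Holstein heifer of 136 kg, with 1 array per tissue. On 2 further arrays channel 1 held lactating mammary gland and channel 2 pre-pubertal gland, from a Holstein heifer weighing 136 kg on array 1 and 227 kg on array 2. The keywords of array 2 read post-pubertal, whereas its title and channel 2 read pre-pubertal, which was followed here. A single array held pre-pubertal gland (Holstein heifer of 136 kg) in channel 1 and post-pubertal gland (Holstein heifer of 310 kg) in channel 2, and 2 arrays set the reference cell line against itself (one is labelled BovMav). The labels give a breed for the heifers' mammary glands alone and give no age or number of animals. They do not say whether the RNA was pooled. The limma p-values over the lactating arrays rest on the spread between these 2 arrays, moderated by a spread pooled over genes. How far that spread covers differences between animals is not known.

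The values are deposited log ratios, centred on the median of each array, in log units whose base is not stated. 1 unit is therefore 2-fold only if the base was 2. Neither the dyes nor which channel was divided by which is stated, so the direction of the tissue ratios is unsettled. The words positive and negative below describe the sign of the deposited ratio. With the sign turned, every most positive value becomes a most negative one, and the sizes stay as they are.

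The 3 spots of a clone ranked alike on the tissue and lactating arrays, with a mean Spearman rho between 0.53 and 0.85 over all clones. On other arrays it was lower or similar: 0.57 and 0.12 on the 2 arrays of reference against itself, and 0.06 on the post-pubertal array. No pair of tissue arrays ran clearly against each other over spots (Pearson r from -0.15 between adrenal tissue and liver to 0.59 between lymph tissue and spleen). In a block of 144 spots without annotation, 69.4% were exactly 0 on the ileum array and 67.4% on the mammary array, against 98.6% to 100% on the other 6 tissue arrays. The SD of the log ratio over genes was 0.51 on the ileum array, against 0.15 to 0.25 on the other 7.

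Both class II genes had their most positive ratio on the ileum array, and BOLA-DRB3 was also at the positive extreme on the spleen and lymph arrays. The 3 spots of BOLA-DRB3 on the ileum array read 3.38, 3.15 and 2.97, a mean of 3.17 ± 0.21 (SD over 3 spots). Spleen followed with spots from 0.92 to 1.14 (mean 1.04 ± 0.11) and lymph tissue with spots from 0.99 to 1.08 (mean 1.03 ± 0.05). The spots of ileum lay above every spot of the other tissues, and spleen and lymph tissue could not be ordered, since the gap of 0.01 between them was smaller than the SDs over spots. Next came the pre-pubertal mammary gland at 0.42 ± 0.12, thymus at 0.28 ± 0.12, adipose tissue at 0.13 ± 0.01, adrenal tissue at 0.05 ± 0.08 and liver at 0.01 ± 0.09. Among these neighbours only the gap between thymus and adipose tissue (0.15) was larger than the SDs of both added together (0.13). The 2 lowest tissues had a spot on either side of 0.

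**Figure D1:**
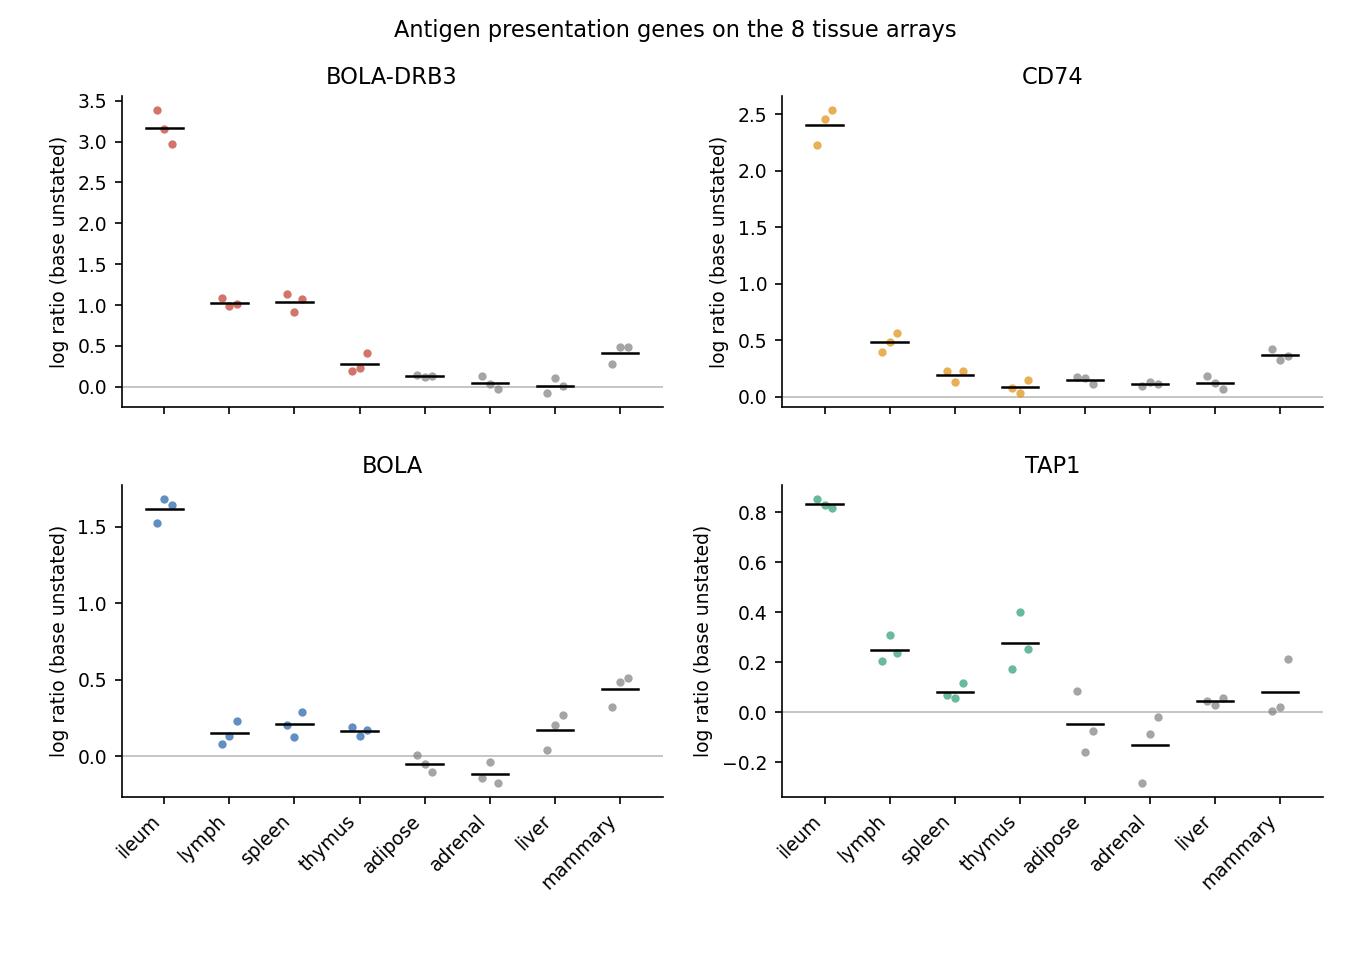
Centred log ratio (y axis, base unstated, a different range in each panel) of BOLA-DRB3, CD74, BOLA and TAP1 on the 8 tissue against reference arrays (x axis). Each point is 1 spot and the line is the mean of 3 spots; ileum, lymph tissue, spleen and thymus are coloured and the other tissues grey. Ileum is the most positive tissue for each gene, at means of 3.17, 2.41, 1.62 and 0.83.

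BOLA-DRB3 ranked first of 703 genes on the lymph array and first of 702 on the spleen array. On the lymph array no other named gene reached 1 unit, and the same held on the spleen array: 0.142% of genes were at or above 1 on each, which is BOLA-DRB3 alone. On the ileum array 3.43% of 700 genes were at or above 1, among them BOLA-DRB3 at rank 2, CD74 at rank 3 and BOLA at rank 12. The gene at rank 1 there was EP400, a chromatin remodeller (3.37), and ASF1A, a histone chaperone, was at rank 4 (2.29). SCARB2, a lysosomal membrane protein, had rank 5 (2.16). EP400 stood at 1.33 on reference against reference array 2, where both channels held the same RNA. With reference RNA in both channels BOLA-DRB3 stood at -0.33 ± 0.30 (SD over 3 spots) and 0.18 ± 0.86, and CD74 at 0.09 ± 0.05 and -0.19 ± 0.25.

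CD74 shared the ileum value with BOLA-DRB3 but not its place on the spleen array. Its spots on the ileum array read 2.23, 2.46 and 2.53, a mean of 2.41 ± 0.16 (SD over 3 spots), which was 1.93 units above the next tissue. That was lymph tissue at 0.48 ± 0.08, where CD74 ranked 4 of 703 genes, followed by the mammary gland at 0.37 ± 0.05. The gap between lymph tissue and mammary gland (0.11) was smaller than the SDs of both together, whereas that between mammary gland and spleen (0.18) was larger. The remaining tissues lay close together, with spleen at 0.19 ± 0.06, adipose tissue at 0.15 ± 0.04, liver at 0.12 ± 0.06, adrenal tissue at 0.11 ± 0.02 and thymus at 0.08 ± 0.06. None of the gaps among these 5 was larger than the spread between spots. On the spleen array CD74 ranked 132 of 702 genes, where BOLA-DRB3 ranked first.

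**Figure D2:**
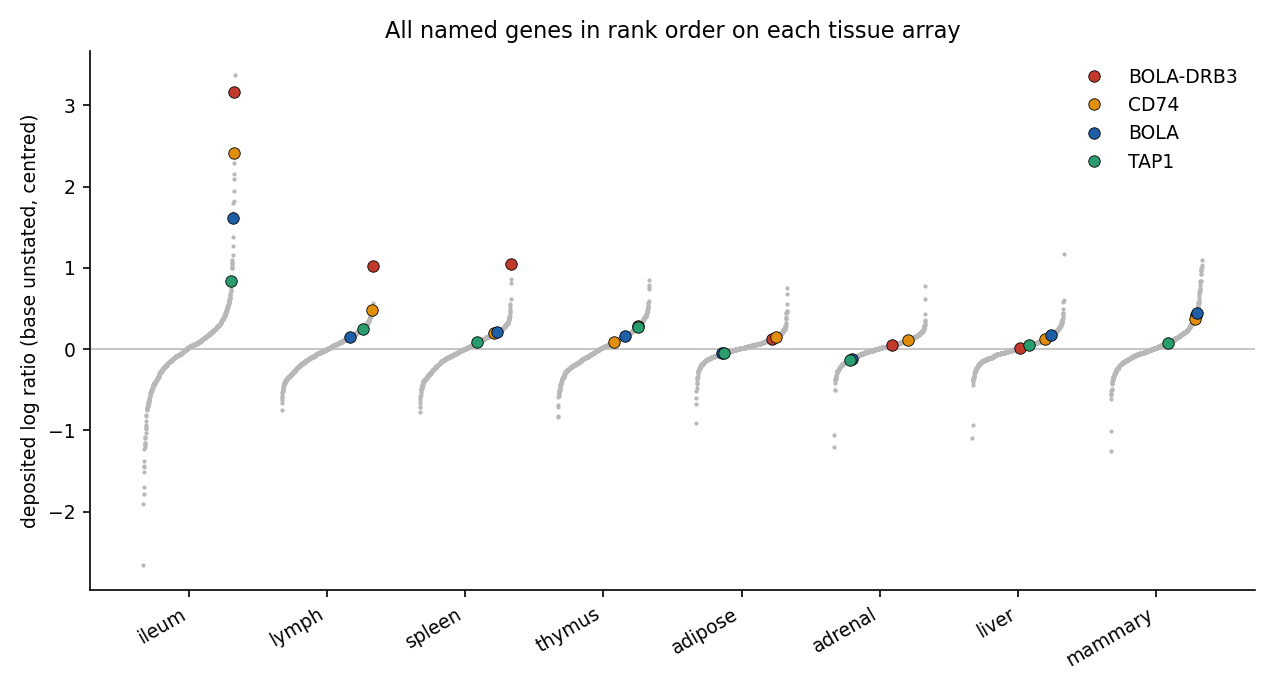
All named genes with a value on each tissue array in rank order (grey points; y axis, centred log ratio of unstated base), with BOLA-DRB3, CD74, BOLA and TAP1 marked. BOLA-DRB3 is the top point on the lymph and spleen arrays, at 1.03 and 1.04, while the ileum array spreads more widely and holds BOLA-DRB3 at 3.17 below EP400 at 3.37.

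BOLA, the class I heavy chain clone, was high on the ileum array and next on the mammary array rather than on the lymphoid arrays. Its ileum spots read 1.52, 1.68 and 1.65, a mean of 1.62 ± 0.08 (SD over 3 spots), 1.18 units above the next tissue. The mammary gland stood at 0.44 ± 0.10 (rank 39 of 703 genes), apart from spleen at 0.21 ± 0.08 by more than the SDs over spots. Spleen, liver (0.17 ± 0.12), thymus (0.16 ± 0.03) and lymph tissue (0.15 ± 0.08) could not be ordered. Adipose tissue at -0.05 ± 0.05 and adrenal tissue at -0.12 ± 0.07 lay on the other side of 0 and did not differ from each other beyond their spots.

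TAP1 had smaller ratios, with the same tissue at the top. On the ileum array its spots read 0.85, 0.83 and 0.82, a mean of 0.83 ± 0.02 (SD over 3 spots) and rank 26 of 700 genes. Thymus at 0.28 ± 0.12 and lymph tissue at 0.25 ± 0.05 came next and could not be ordered. Spleen (0.08 ± 0.03), the mammary gland (0.08 ± 0.12), liver (0.04 ± 0.01), adipose tissue (-0.05 ± 0.13) and adrenal tissue (-0.13 ± 0.14) followed. The gap between lymph tissue and spleen (0.17) was larger than the SDs of both added together (0.09). From spleen to adrenal tissue no gap was larger than the SDs over spots. The ileum spots lay above every spot of the other tissues.

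Ileum was thus the most positive tissue for all 4 genes, as it was for 23.9% of the 695 genes with a value on all 8 tissue arrays. BOLA-DRB3, CD74 and BOLA stood at least 1 unit above the next tissue there, as did 2.01% of genes, and TAP1 stood 0.56 above. With the arrays scaled to the same median absolute deviation, ileum was still the most positive tissue for each. The margins were 1.11 for BOLA-DRB3, 1.16 for CD74, 0.60 for BOLA and 0.30 for TAP1. Such scaling evens out the middle spread of the arrays but need not even out their tails, where these genes lay on the ileum array. The share of all genes with such margins after scaling was not counted. Each tissue had 1 array, so the difference of ileum from the rest has no replicate check, and array and tissue cannot be told apart.

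The ileum and the 3 lymphoid tissues (lymph tissue, spleen and thymus) were then set against adipose tissue, adrenal tissue, liver and mammary gland. Tissues of a class are different organs and not replicates of a condition, so the spread within a class includes the differences between organs. TAP1 averaged 0.36 ± 0.33 (SD, n = 4 tissues) against -0.01 ± 0.09 (n = 4), a difference of 0.37 with a 95% limma interval of 0.04 to 0.70. All 4 arrays lay above the highest of the others (0.08), by a margin of 0.0014 for spleen, as was the case for 2.88% of 695 genes. A two-sided exact permutation test gave p = 0.0286, the smallest that 4 against 4 can give, and the limma adjusted p over all genes was 0.447. BOLA-DRB3 averaged 1.38 ± 1.24 against 0.15 ± 0.18, a difference of 1.23 (interval 0.15 to 2.31, exact permutation p = 0.0571, limma adjusted p = 0.447), with thymus below mammary gland. CD74 differed by 0.60 (interval -0.34 to 1.55, exact p = 0.257) and BOLA by 0.42 (interval -0.25 to 1.09, exact p = 0.4), and limma gave an adjusted p of 0.573 for both. In this comparison limma called 0% of 695 genes in either direction at an adjusted p of 0.05, and 72 had an unadjusted p below 0.05.

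The lymphoid tissues without ileum kept a difference for BOLA-DRB3 and TAP1 that did not pass the test. BOLA-DRB3 averaged 0.78 ± 0.44 (SD, n = 3 tissues) against 0.15 ± 0.18 (n = 4), a difference of 0.63 with a 95% limma interval of 0.25 to 1.02 (exact permutation p = 0.114, limma adjusted p = 0.273). Without the thymus array the difference was 0.88 with a limma adjusted p of 0.0343, the only one of 7 single omissions that passed. Thymus held the lowest lymphoid value of BOLA-DRB3 (0.28), so leaving it out raises the difference. How many of all genes passed in that fit was not counted. TAP1 averaged 0.20 ± 0.11 against -0.01 ± 0.09, a difference of 0.22 (interval 0.01 to 0.42, limma adjusted p = 0.34). Its groups did not overlap, as for 6.47% of 695 genes, and the exact permutation p of 0.0571 is the smallest that 3 against 4 can give. CD74 (0.06, interval -0.19 to 0.31) and BOLA (0.06, interval -0.22 to 0.34) had exact permutation p-values of 0.514 and 0.8. Limma called 0% of 698 genes here, and 94 had an unadjusted p below 0.05. 8 exact tests were run over the 2 comparisons.

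The class I pathway was also sampled by 6 clones, of 3 spots each, that the annotation assigned to several class I genes at once. They are given as clones A to F and not under a gene's name: A and D were listed for BOLA-N, BOLA and BOLA-NC1, C for BOLA-N and JSP.1, and B, E and F for BOLA and BOLA-NC1. Clones A, C, D and E read 1.47, 1.60, 1.47 and 1.80 on the ileum array, with SDs over spots of 0.17, 0.13, 0.11 and 0.09, close to BOLA at 1.62. Clone B read 0.33 ± 0.05 and clone F -0.30 ± 0.03 there. Over the 7 clones, 5 were thus at or above 1 on the ileum array, as were 3.17% of 1229 clones. Class I genes are highly alike in sequence, so these clones can bind RNA of the same genes and are not independent of each other.

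The class I clones differed among themselves away from the ileum. Clone A was on the positive side in lymph tissue (0.35) and mammary gland (0.56), whereas clone C was on the negative side in all 3 lymphoid tissues, at -0.27 in lymph tissue, -0.17 in spleen and -0.24 in thymus. Clones E and F carried the same accession and sat next to each other in the table, but stood 2.10 apart on the ileum array (1.80 against -0.30). On lactating array 1 they read -0.38 and 0.83. A single sequence label therefore covered 2 clones with different ratios, and its mean over 6 spots describes neither.

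**Figure D3:**
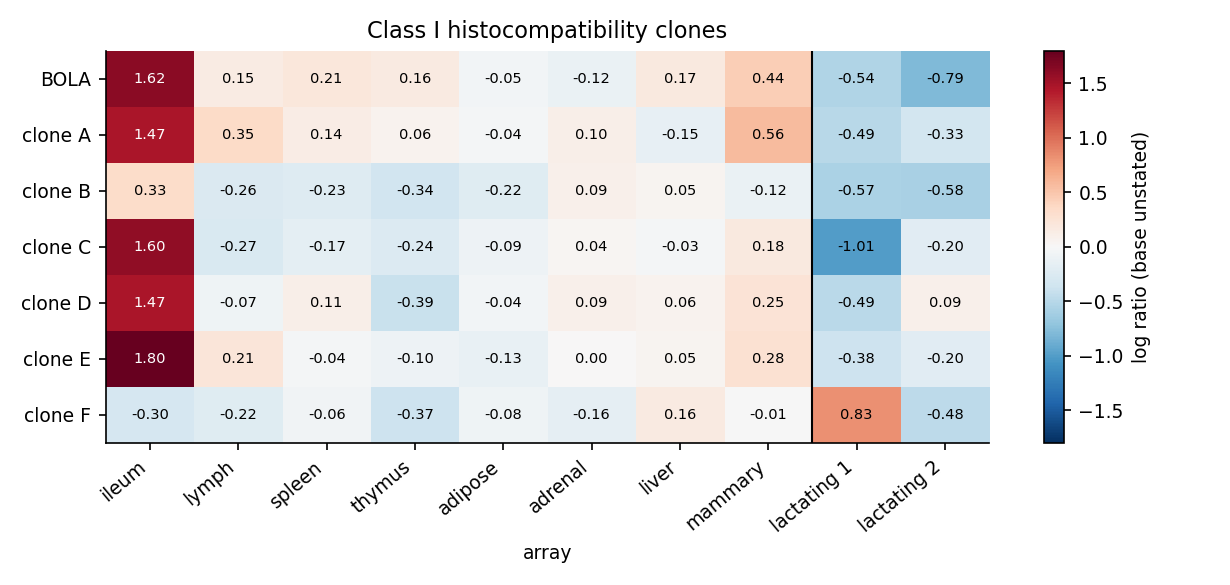
Mean centred log ratio (colour and printed value, base unstated) of the BOLA clone and of clones A to F, which were assigned to several class I genes (rows), on the 8 tissue arrays and, right of the line, the 2 lactating arrays (columns). BOLA and clones A, C, D and E share values of 1.47 to 1.80 on the ileum array, while clone F is at -0.30 there.

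Between lactating and pre-pubertal mammary gland the class I heavy chain and its peptide transporter lay on opposite sides of 0, and the class II genes lay near 0. The direction of these arrays can be called likely from the milk protein genes, which rise in lactation: CSN1S1 (alpha-S1 casein) stood at 2.09 ± 0.67 (SD, n = 2) and CSN2 (beta-casein) at 0.77 ± 0.02, both past the limma test, so the positive side is likely that of more RNA in lactating gland. Their SDs over spots on arrays 1 and 2 were 0.72 and 0.62 for CSN1S1 and 0.39 and 0.43 for CSN2. Whether they kept their calls under other settings is not given here. CSN1S1 and CSN2 were 2 of 8 measured milk secretion genes to pass. The other 6 also had positive means, from 0.10 to 0.47, but CSN1S2 (alpha-S2 casein) read -0.19 and 0.39 on the 2 arrays, and CSN3 (kappa-casein) lay at 0.41 ± 0.80. Lactating RNA was in channel 1 of both arrays, so a dye effect need not cancel. Read this way, the ratio is channel 1 over channel 2. If the tissue ratios were formed in the same order, their positive side would be that of the reference cell line, and the positive ileum, spleen and lymph values would stand for less RNA in those tissues than in the reference. BOLA read -0.54 ± 0.18 (SD over 3 spots) on array 1 and -0.79 ± 0.28 on array 2. All 3 spots were below 0 on both arrays, and BOLA ranked 15 from the most negative of 697 genes. Its mean was -0.66 ± 0.18 (SD, n = 2 arrays), with a 95% limma interval of -0.99 to -0.33 and an adjusted p of 0.00802. Limma called 3.44% of genes on the negative side and 11.3% on the positive side, 24 and 79 genes. Most of the negative calls went under some settings: there were 32 negative and 52 positive calls on the values as deposited, without centring, but 1 and 29 with arrays scaled to the same median absolute deviation, 0 and 32 with an exact 0 kept, and 2 and 34 with the spread shared with the arrays of reference against itself.

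BOLA lost this call in 6 of 11 alternative settings, among them other estimates of the spread. Contrasted with the arrays of reference against itself, where BOLA read 0.01 and 0.08, the difference was -0.71 with a limma adjusted p of 0.16, and 0 genes were called on the negative side. With those arrays lending only their spread the adjusted p was 0.0525, and with arrays scaled to the same median absolute deviation it was 0.0606. Left with array 2 alone BOLA had an adjusted p of 0.0805, and with array 1 alone of 0.339, in limma fits that assume the lone array to vary like the arrays of reference against itself. In bulk tissue, fewer cells of a type and less RNA per cell cannot be told apart.

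TAP1 lay on the side of the caseins. It read 0.33 ± 0.10 (SD over 3 spots) on array 1 and 0.47 ± 0.34 on array 2. The mean was 0.40 ± 0.10 (SD, n = 2 arrays) with an interval of 0.07 to 0.72, and TAP1 did not pass (adjusted p = 0.0909, limma). With reference RNA in both channels TAP1 read 0.18 ± 0.01 (SD over 3 spots) and -0.15 ± 0.28. The contrast with those arrays was 0.38 (limma adjusted p = 0.351). CD74 read -0.26 ± 0.01 and -0.09 ± 0.29, a mean of -0.17 ± 0.12 with an interval of -0.50 to 0.15 (adjusted p = 0.511, limma). BOLA-DRB3 read -0.11 ± 0.12 on array 1 and 0.23 ± 0.36 on array 2, on different sides of 0, with a mean of 0.06 ± 0.24 and an interval of -0.27 to 0.39 (adjusted p = 0.849, limma). For both class II genes the intervals leave out a shift of 1 unit in either direction.

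The clones assigned to several class I genes mostly lay on the side of BOLA. In a fit over all 1229 clones BOLA kept its call (adjusted p = 0.0247, limma) and clone B passed beside it, at -0.57 on array 1 and -0.58 on array 2 (adjusted p = 0.0399, limma). That makes 2 of 7 class I clones called on the negative side, where 4.39% of all clones were. Of the 6 clones other than BOLA, 4 were below 0 on both arrays, as were 34.5% of all clones. Clone A (-0.49 and -0.33), clone C (-1.01 and -0.20) and clone E (-0.38 and -0.20) did not pass, with limma adjusted p-values of 0.125, 0.0871 and 0.284. Clone D (-0.49 and 0.09) and clone F (0.83 and -0.48) lay on different sides of 0 on the 2 arrays.

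**Figure D4:**
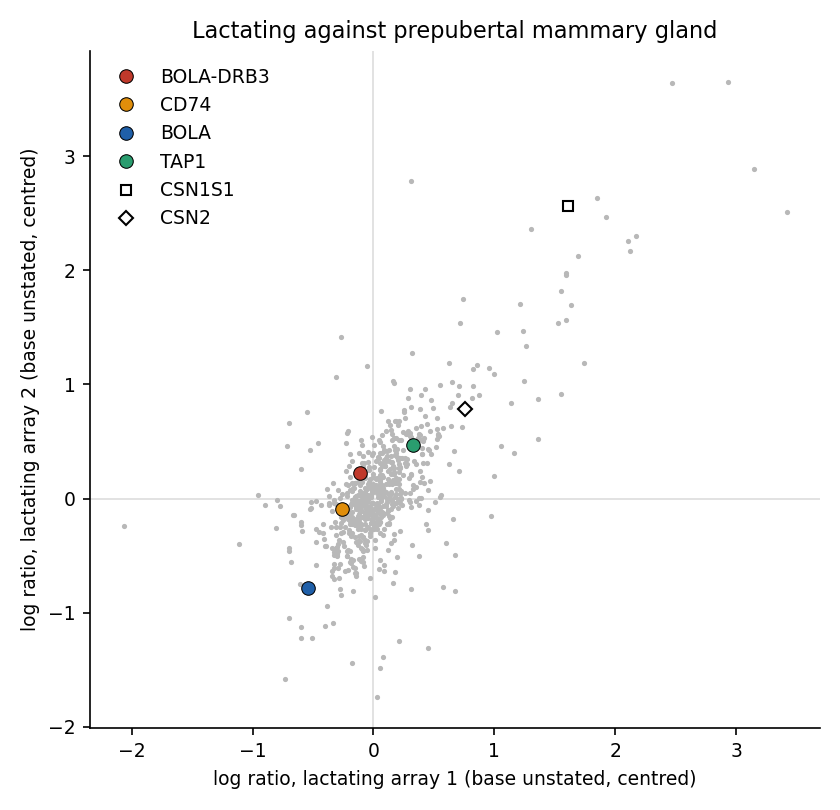
Centred log ratio of each named gene (grey points) on lactating array 1 (x axis) and lactating array 2 (y axis), both of unstated base, with the 4 antigen presentation genes as coloured circles and CSN1S1 and CSN2 as open symbols. BOLA lies in the lower left at -0.54 and -0.79, TAP1 in the upper right at 0.33 and 0.47, and BOLA-DRB3 and CD74 lie within 0.26 of 0 on both arrays.

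On the single post-pubertal array BOLA read -0.20 ± 0.18 (SD over 3 spots), CD74 -0.09 ± 0.20, TAP1 0.09 ± 0.09 and BOLA-DRB3 0.02 ± 0.11. BOLA was the most negative of the 4, at rank 651 of 694 genes from the most positive. Pre-pubertal gland was in channel 1 here and in channel 2 on the lactating arrays, so the same sign points to opposite sides if the ratios were formed in one order. The spots of a clone barely ranked alike on this array (mean rho 0.06), and without a replicate no difference was tested.

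Few other genes of the pathways were measured. Of 21 class I pathway genes listed, 3 had a value: BOLA, TAP1 and PDIA3, a disulfide isomerase that also works in the class I loading complex. On the lactating arrays PDIA3 passed on the casein side, at 1.36 and 0.52 (mean 0.94 ± 0.59, SD, n = 2, limma adjusted p = 0.00235). Thus 1 of the 3 was called on each side, where 11.3% of all genes were called positive and 3.44% negative. The negative one is BOLA, whose call was lost in 6 of 11 settings. Whether PDIA3 kept its call in those settings is not given here. The median of the 3 was 0.40, the value of TAP1, which did not pass, with BOLA at -0.66 and PDIA3 at 0.94. The median over all genes, -0.00027, lies near 0 because the arrays were centred. PDIA3 stood at -0.44 ± 0.05 (SD over 3 spots) on the ileum array, opposite in sign to BOLA and TAP1. Of 24 class II pathway genes, BOLA-DRB3 and CD74 alone were measured, and limma called 0 of the 2 in each comparison, where it called 11.3% and 3.44% of all genes on the lactating arrays and 0% in the tissue comparisons. With 2 genes that count shows little. Of 25 interferon response genes, GBP1, a guanylate-binding protein, was measured, at 0.26 ± 0.01 on the ileum array, 0.38 on the mammary array and -0.09 ± 0.12 (SD, n = 2) on the lactating arrays (limma adjusted p = 0.769).

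Markers of the cells that carry these molecules were sparse. Of the B cell, T cell, macrophage and dendritic cell, and ileum epithelium lists, 0 genes were measured, as for the adipocyte and adrenal lists, so those labels could not be checked. MPEG1, a macrophage gene outside these lists, read -0.24 on the ileum array, 0.03 on the lymph array and 0.10 on the spleen array. The 3 measured hepatocyte genes, FGG, A2M and C3, read 0.21, -0.27 and -1.10 on the liver array, without a common sign. Of 9 leukocyte genes 3 were measured, the phosphatase PTPRC (CD45), the actin bundler LCP1 and the GTPase RAC2. Their mean was 0.48 on the ileum array, -0.30 to -0.13 on the lymphoid arrays and -0.22 to 0.09 on the other tissue arrays. On the spleen array, where BOLA-DRB3 was the most positive gene, PTPRC read -0.09, LCP1 -0.34 and RAC2 -0.47, and on the lymph array -0.10, -0.35 and -0.27. On the lactating arrays RAC2 passed on the negative side, at -0.81 and -0.26 (mean -0.53 ± 0.39, SD, n = 2, limma adjusted p = 0.0438). PTPRC (0.08 ± 0.03) and LCP1 (-0.01 ± 0.07) did not, so 1 of 3 was called, where 3.44% of all genes were called negative. RAC2 lost this call with an exact 0 kept and in contrast with the arrays of reference against itself, where 0 genes were called negative. Of 10 epithelial genes 3 were measured, with a mean of 0.91 on the ileum array, -0.14 to -0.03 on the lymphoid arrays and 0.01 to 0.05 on the others. EPCAM, the epithelial adhesion molecule, read 1.94 ± 0.13 (SD over 3 spots) on the ileum array and 1.51 ± 1.81 on reference against reference array 2, ELF5, an epithelial transcription factor, 0.72 on the ileum array and the keratin KRT7 0.06. The part of leukocytes and epithelium in the ileum values was not tested.

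The 4 genes followed each other across the tissues mostly through the ileum array. Over the 8 tissue arrays, which share the reference RNA, their pairwise Pearson r lay between 0.91 (CD74 and TAP1) and 0.96 (BOLA and CD74), and over the 7 arrays without ileum between 0.38 (BOLA and BOLA-DRB3) and 0.65 (BOLA-DRB3 and CD74). Among 691 other genes, the pattern of CD74 over 8 arrays was most like those of EPCAM (r = 0.99), EP400 (0.98), ANAPC5 (0.98), WDR12 (0.98) and XIST (0.96). BOLA-DRB3 was nearest to EPCAM (0.95), XIST (0.94), ABCE1 (0.93), ELOA (0.93) and SLC31A1 (0.93). BOLA was nearest to NAALADL1 (0.98), ELOA (0.97), KLF10 (0.97), WDR12 (0.97) and ANAPC5 (0.96), and TAP1 to SLC31A1 (0.98), CPT2 (0.94), LOC104975673 (0.94), BIRC6 (0.93) and SCARB2 (0.93).

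Without the ileum array the nearest genes were others, apart from SLC31A1, a copper transporter, which stayed among the 5 of TAP1 (r = 0.92). BOLA-DRB3 was then nearest to SNW1 (0.97), FIP1L1 (0.92), ARMCX3 (0.91), NXPE3 (0.89) and SLC1A5 (0.89). For CD74 these were BCL2L1 (0.91), SRSF10 (0.88), AACS (0.86), QARS1 (0.81) and DDX5 (0.80). BOLA was nearest to ZCCHC17 (0.96), SERINC3 (0.93), FGG (0.93), the macrophage gene MPEG1 (0.92) and FGF2 (0.92), and TAP1 to PTPRA (0.99), ZWILCH (0.94), SHTN1 (0.93) and HPRT1 (0.92). Near the members on the ileum array in rank, BOLA stood between ABCE1 (1.64), ANXA8L1 (1.67) and, below it, NAALADL1 (1.62) and FNTB (1.37). TAP1 stood between CD47 (1.00) and RAC2 (0.85) above and CHTOP (0.83) and OGDH (0.75) below.

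The measured neighbours along the chromosome had much smaller ratios on the ileum array. RefSeq (assembly ARS-UCD2.0) places BOLA-DRB3 and TAP1 on 1 chromosome with 21 measured genes, and CD74 on another with 34. The nearest measured genes around BOLA-DRB3 were CRISP3 (0.11 on the ileum array) and MCM3 (-0.20) on one side and DDAH2 (-0.29) and BAG6 (-0.28) on the other, against 3.17 for BOLA-DRB3. Next to TAP1, which was the first measured gene of that chromosome, stood VPS52 (-0.02) and ZBTB9 (0.15). The neighbours of CD74, YIPF5 (0.10), GRPEL2 (-0.15), FAM114A2 (0.03) and CLINT1 (-0.38), lay between -0.38 and 0.10 there, against 2.41 for CD74. The gene identifier given for BOLA was not matched in that table, so its neighbours were not looked up.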

How the data were processed

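The authors deposited 1 log ratio of the 2 channels per spot for 13 arrays. Background correction, normalization, log base and direction: not given in the sources used here. Symbols came from the platform annotation, which named 1 gene for 2538 of 3888 spots, several for 30 and none for 1320, and 3 of the 4 members' identifiers matched the RefSeq table. An exact 0 was taken as missing, each array was centred on its median, spots of 1 accession were averaged (minimum 2 spots), features measured on 7 or more arrays entered, and a gene was the mean of its features. Limma 3.58.1 in R 4.3.3 (lmFit, eBayes, Benjamini-Hochberg over all named genes, threshold 0.05) tested the lactating mean against 0 and the tissue classes, on genes with a value on each array used. The lactating test had 14.5 degrees of freedom, 13.5 of them pooled over genes. Exact permutation tests used scipy 1.17.1 under Python 3.11.15. The fits were tested on simulated data. Neighbours in a tissue order were called apart when the gap exceeded both SDs over spots added together. Precision is limited by the number of arrays. The members, lists and rules were chosen with earlier results of these data known. The rule named all members, measured genes of the pathway and marker lists, the 5 genes most alike by Pearson r and the neighbours in rank on the ileum array. Clones assigned to several class I genes and chromosome neighbours were added after the data were seen.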

Additional observations from a re-analysis of the deposited data

Results flagged for a closer look

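Dixon's limit was applied to 12 groups of tissue arrays (the 8 tissues, the ileum and lymphoid tissues, and the other tissues, for each of 4 genes). In these, 6 values lay farther from the nearest other value than that limit allows. Chance gives about 1 in 20 for independent groups. These groups overlap in arrays, and the members were chosen with earlier results of these data known, so the 6 cannot be set against that rate. Over the 8 tissues the ileum array was the high one for BOLA (1.62, gap 0.68 of the range), BOLA-DRB3 (3.17, 0.67), CD74 (2.41, 0.83) and TAP1 (0.83, 0.58). Among ileum and the lymphoid tissues ileum was far from the rest for BOLA (1.62, gap 0.96 of the range). Among the other tissues the mammary gland was far from the rest for CD74 (0.37, gap 0.86 of the range). These groups hold different organs, so a distant value need not be an error.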

How the results depend on the processing

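For lactating gland the count of called genes, 103, was 32 with an exact 0 kept, 30 with arrays scaled to the same median absolute deviation, 13 contrasted with the arrays of reference against itself, 36 with those arrays sharing the spread (added after the data were seen) and 22 to 48 without 1 array. BOLA stayed negative in all 11 alternatives run but lost its call in 6: with an exact 0 kept (-0.68, limma adjusted p = 0.0888), scaled (-0.45), in contrast (-0.71), with the shared spread (-0.66) and without 1 array (-0.79 to -0.54). BOLA-DRB3 turned to -0.038 on the deposited values and ranged from -0.11 to 0.23 without 1 array. For the lymphoid tissues without ileum, single omissions ranged from -0.051 to 0.15 for CD74, from -0.014 to 0.17 for BOLA and from 0.50 to 0.88 for BOLA-DRB3. CD74 turned sign without lymph tissue and BOLA without adrenal tissue. In the comparison of ileum and lymphoid tissues no named gene passed in the 15 alternatives that counted genes, which says nothing about stability, and the sizes moved. With limma array weights BOLA was 0.18, CD74 0.24, TAP1 0.25 and BOLA-DRB3 0.90 (limma adjusted p = 0.0785 for BOLA-DRB3). Scaling gave 0.28 for BOLA and 0.33 for CD74. Single omissions ranged from 0.06 to 0.55 for BOLA, 0.06 to 0.84 for CD74 and 0.63 to 1.59 for BOLA-DRB3, each lowest without ileum. Scaling moved the ileum values to 2.15 for BOLA-DRB3, 1.63 for CD74, 1.10 for BOLA and 0.57 for TAP1, and TAP1 also to 0.86 on the deposited values and 0.85 with an exact 0 kept. The causes were not tested. No paired analysis was run. The labels name a heifer of 136 kg on the mammary array, lactating array 1 and the post-pubertal array. They do not say whether it was the same animal. The numbers 1 and 2 only name arrays.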
